A study of Homo sapiens with 4 samples.

Results

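The antigen receptor loci are the 6 stretches of the human genome that encode immunoglobulin heavy (IGH), kappa (IGK) and lambda (IGL) chains and the T cell receptor alpha (TRA, which also contains the delta genes), beta (TRB) and gamma (TRG) chains. CTCF peaks were taken as members when any base lay inside 1 of these intervals or within 100 kb of it, and 248 of the 42388 peaks on chromosomes 1 to 22 and X qualified. Of these, 205 lay inside the loci and 43 in the flanks. The data came from chromatin immunoprecipitation and sequencing (ChIP-seq) with an antibody against CTCF in asynchronous cultures of MDA-MB-435, an established human melanoma line. The series labels list 4 samples, split evenly between mitotic cells, immunoprecipitated for CTCF carrying the pT431 phosphorylation, and asynchronous cells, immunoprecipitated for CTCF of any state, with 2 replicates each. Only the peak list of asynchronous replicate 1 (19210460 tags) was analysed, so every value below describes 1 library, has no replicate check and carries intervals for counting error only. The mitotic cells were not analysed here.

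Each locus holds an array of variable (V) segments on one side and joining (J), in some loci diversity (D), and constant (C) segments on the other. In developing lymphocytes the RAG recombinase joins 1 V segment to the J or D segments by cutting at a recombination signal sequence that borders each segment, on the J-facing border of a V segment. CTCF, a zinc finger protein that holds the ends of chromatin loops, is known in mouse lymphocytes for shaping such loci. There, sites between the V array and the D or J segments of Igh and Igk insulate both sides from each other, and sites through the V arrays take part in locus contraction. Melanoma cells are not lymphocytes and do not carry out this recombination, so the peaks give the occupancy of these loci outside their own lineage.

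The intervals, on build hg38, were chr14:105586437-106879844 for IGH, chr2:88857361-90235368 for IGK, chr22:22026076-22922913 for IGL, chr14:21621904-22552132 for TRA, chr7:142299011-142813287 for TRB and chr7:38240024-38368055 for TRG. With flanks they held 73, 18, 55, 43, 41 and 18 peaks in that order, and without flanks 66, 14, 47, 37, 34 and 7. The 100 kb limit fell between peaks in every locus: the outermost member lay between 43.4 kb (IGK) and 96.4 kb (IGH) from its locus, and the nearest peak left out between 100.9 kb (TRA) and 158.1 kb (IGL).

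Sequence was available for the gene promoters that member peaks overlapped, and 4 of these windows are shown because they carry the strongest peaks of the IGL and TRA windows. Each is the RefSeq promoter window of GRCh38.p14, 250 bases before to 50 bases after the annotated start, read on the gene's own strand. Capitals mark matches to a core of the CTCF motif, spelled CC, any 3 bases, AGG, any 1 base and GGC, searched on both strands.
PRAME (chr22:22559216-22559515, minus strand): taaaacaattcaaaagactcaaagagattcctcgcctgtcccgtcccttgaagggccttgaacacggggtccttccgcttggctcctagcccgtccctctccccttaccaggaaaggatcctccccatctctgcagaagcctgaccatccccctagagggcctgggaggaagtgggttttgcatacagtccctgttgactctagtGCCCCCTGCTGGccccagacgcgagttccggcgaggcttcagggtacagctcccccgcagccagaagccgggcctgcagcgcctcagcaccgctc
PPM1F-AS1 (chr22:21937987-21938286, plus strand): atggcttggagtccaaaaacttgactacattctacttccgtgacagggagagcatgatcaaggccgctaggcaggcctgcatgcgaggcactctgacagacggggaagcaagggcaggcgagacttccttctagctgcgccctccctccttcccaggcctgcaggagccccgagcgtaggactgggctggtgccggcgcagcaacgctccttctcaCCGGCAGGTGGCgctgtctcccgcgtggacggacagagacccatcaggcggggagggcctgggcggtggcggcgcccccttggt
PPM1F (chr22:21952799-21953098, minus strand): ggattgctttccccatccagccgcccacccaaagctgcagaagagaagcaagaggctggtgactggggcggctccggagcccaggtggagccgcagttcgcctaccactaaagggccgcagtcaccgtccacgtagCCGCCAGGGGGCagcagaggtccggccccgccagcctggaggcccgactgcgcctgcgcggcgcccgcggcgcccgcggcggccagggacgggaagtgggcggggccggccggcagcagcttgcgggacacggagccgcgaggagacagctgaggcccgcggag
LOC105370399 (chr14:22557133-22557432, plus strand): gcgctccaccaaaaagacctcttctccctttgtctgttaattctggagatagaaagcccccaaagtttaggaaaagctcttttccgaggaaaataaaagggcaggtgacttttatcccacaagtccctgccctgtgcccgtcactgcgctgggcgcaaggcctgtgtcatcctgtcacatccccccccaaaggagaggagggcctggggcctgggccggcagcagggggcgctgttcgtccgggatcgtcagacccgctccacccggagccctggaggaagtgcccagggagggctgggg

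PRAME encodes an antigen first found in melanoma. The match in its window, at chr22:22559299-22559310, also lay in the overlapping window of a gene that starts in the opposite direction, and its middle was 1 bp from the centre of the peak. That peak (chr22:22559132-22559480) held 109.8 normalised tags (95% Poisson interval 95.5 to 126), normalised tags being counts scaled to 10000000 tags per library. In the PPM1F window the match lay 6 bp from the centre of a peak of 65.6 normalised tags, and in the PPM1F-AS1 window 34 bp from the centre of a peak of 106.7. The LOC105370399 window, beyond the constant end of TRA, held the highest member of all at 150.2 normalised tags (134 to 169). It had no match to these letters, but 1 to the shorter AGGNGGC, which 35.8% of all promoter windows hold. That shorter match lies in gcagcagggggc, which departs from the longer spelling only in its first base. Of 14 promoter windows overlapped by a member peak, 4 held the motif (28.6%, exact Clopper-Pearson 95% interval 8.39 to 58.1), against 15.7% of the 3855 windows overlapped by any peak and 4.62% of all 34789 windows. The 4 windows stand for 3 sites, since PRAME and the gene opposite to it share 1. Others of the 14 windows also come in pairs under the same peak, such as those of TEDC1 and of LOC101929255. The interval treats all 14 as independent, which they are not. Sequence of the V segments themselves was not used here.

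CTCF peaks were dense in these loci. The windows held 3.91 peaks per 100 kb (3.44 to 4.43), against 1.39 (1.38 to 1.41) over the rest of the chromosomes between their first and last annotated genes, a ratio of 2.81. Inside the intervals the density was 5.10 peaks per 100 kb in IGH (3.95 to 6.49), 5.24 in IGL (3.85 to 6.97), 3.98 in TRA (2.80 to 5.48), 6.61 in TRB (4.58 to 9.24) and 5.47 in TRG (2.20 to 11.3). IGK stood apart from these, with 1.02 peaks per 100 kb (0.555 to 1.71), against 1.35 (1.31 to 1.40) on the rest of chromosome 2. The rest of chromosomes 7, 14 and 22 had 1.34, 1.21 and 1.43 peaks per 100 kb.

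The member peaks were many rather than strong. Their median was 22 normalised tags (18.5 to 24.5), against 20 (19.8 to 20.3) for all other peaks, and 17 of 248 (6.85%, 4.04 to 10.8) were in the top 10% of the list by the caller's score, which by ties held 10.1% of the whole list. The order of the medians was not stable: it turned without IGL (19.0 normalised tags), without TRB (19.3) and among peaks scoring at least the list's median (32.3, against 34.6 for the other peaks so chosen). Of those 17 peaks, 8 were among the 43 in the flanks and 9 among the 205 inside. Over all 248 members the fold over the surrounding 10 kb was higher, with a median of 18.6 against 13.6 for all other peaks. The median local background of the 248 was lower, at 1.26 against 1.48 normalised tags. By locus, the peaks inside had medians of 31.4 normalised tags in TRB, 28.1 in TRG, 27.1 in IGL, 21.7 in IGH, 16.2 in IGK and 13.3 in TRA. TRA peaks (11.2 to 15.6) were lower than those of IGL (21.6 to 29.2) and TRB (22.9 to 38.0), with intervals that do not overlap, whereas neighbours in this order had overlapping intervals.

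**Figure D1:**
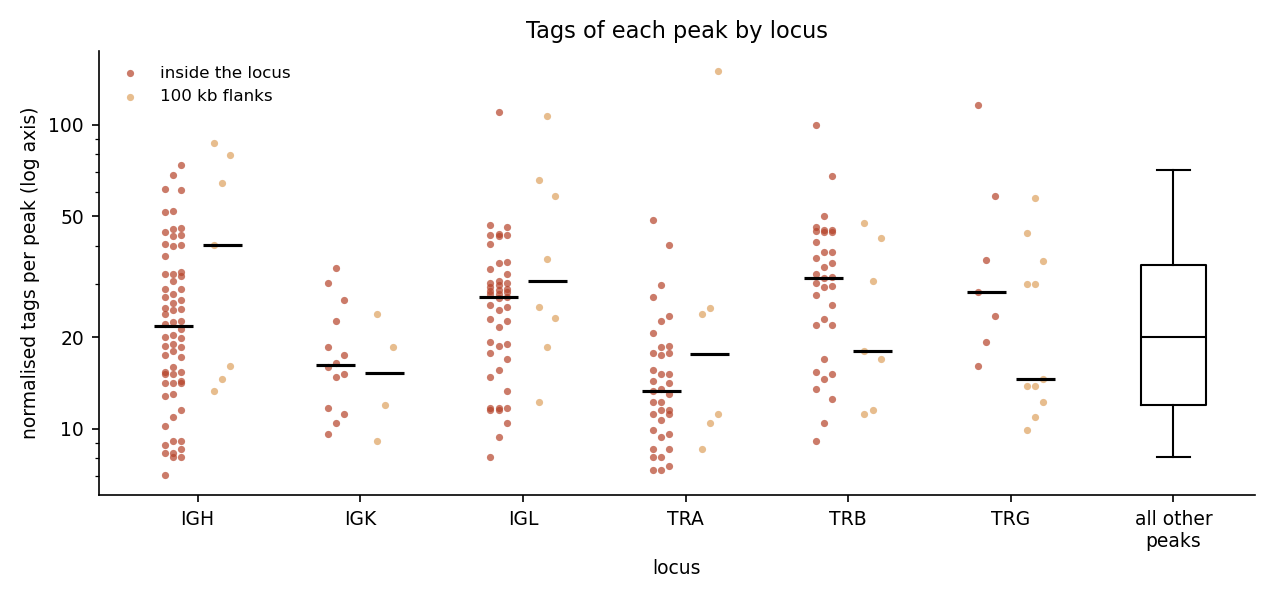
Normalised tags of each member peak (log axis) inside each locus and in its 100 kb flanks, with a bar at the median, beside a box of all other peaks (quartiles, whiskers from the 5th to the 95th percentile). TRA has the lowest median inside the loci, at 13.3, against 20 for all other peaks, and its C-side flank holds the highest member, at 150.2.

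Most peaks lay in the V arrays, with IGK as the exception in density. Taking the 6 loci together, the variable zones held 189 peaks in 4362 kb, or 4.33 per 100 kb (3.74 to 5). By locus the variable zone had 6.60 peaks per 100 kb in IGH, 5.38 in IGL, 4.29 in TRA, 7.24 in TRB and 9.16 in TRG, but 0.889 (0.459 to 1.55) in IGK, whose zone is the longest at 1350 kb, against 1.39 over the rest of the list. The IGK zone includes the sequence between IGKV2-40, which ends at chr2:89330429, and IGKV2D-40, which starts at chr2:89851758. That sequence holds no V segment and only the peak in the pseudogene ABCD1P1, and the density without it was not computed. The gaps between the last V segment and the first D or J segment held 10 peaks in 234.7 kb, or 4.26 (2.04 to 7.83). The D and J zones held 3 peaks in 226.1 kb, or 1.33 per 100 kb (0.274 to 3.88), all of them in TRA. The constant zones held 2 peaks in 306.4 kb, or 0.653 per 100 kb (0.0791 to 2.36), both in IGH, whose constant zone makes up 276.3 kb of that length. The density of the rest of the list lies within the last pair of intervals, so at this depth the D, J and constant zones were not distinguishable from it. Neighbouring peaks in the variable zone lay a median of 13.5 kb apart in IGH, 14.3 in TRA, 14.5 in TRB, 17.2 in IGL, 5.22 in TRG and 61.4 in IGK, against 35.1 kb over all peaks.

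**Figure D2:**
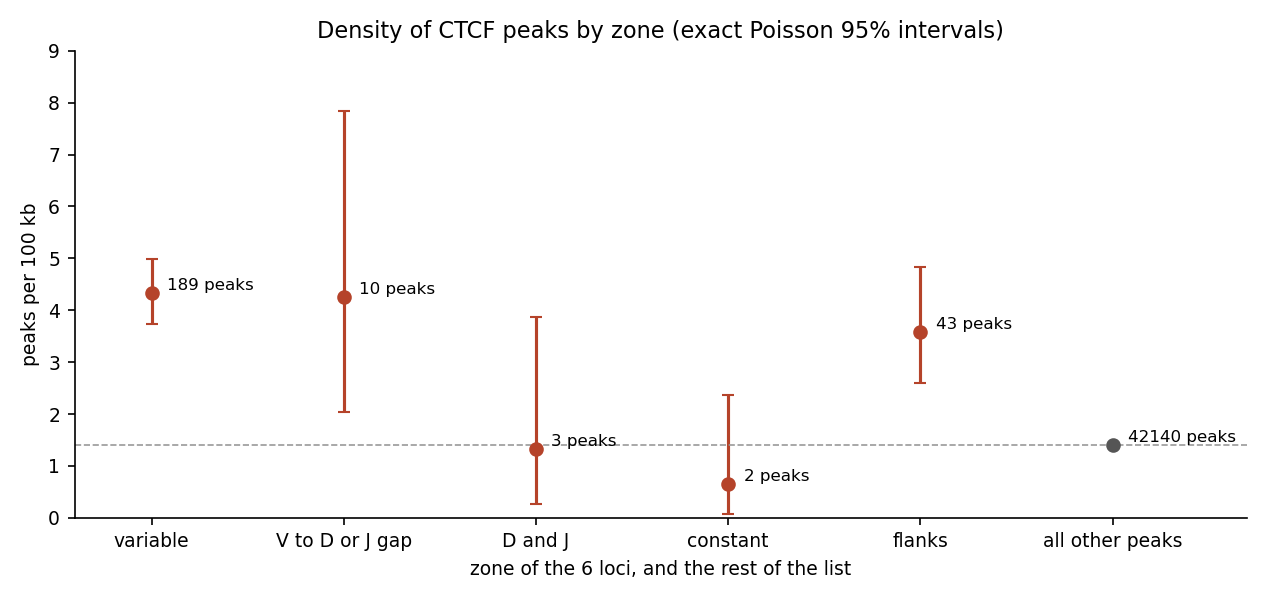
Peaks per 100 kb in each zone of the 6 loci pooled, in their flanks, and over the rest of the list (dashed line), with exact Poisson 95% intervals and the number of peaks. The variable zones reach 4.33 peaks per 100 kb, against 1.39 for all other peaks, and the D and J and constant zones lie at 1.33 and 0.653.

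**Figure D3:**
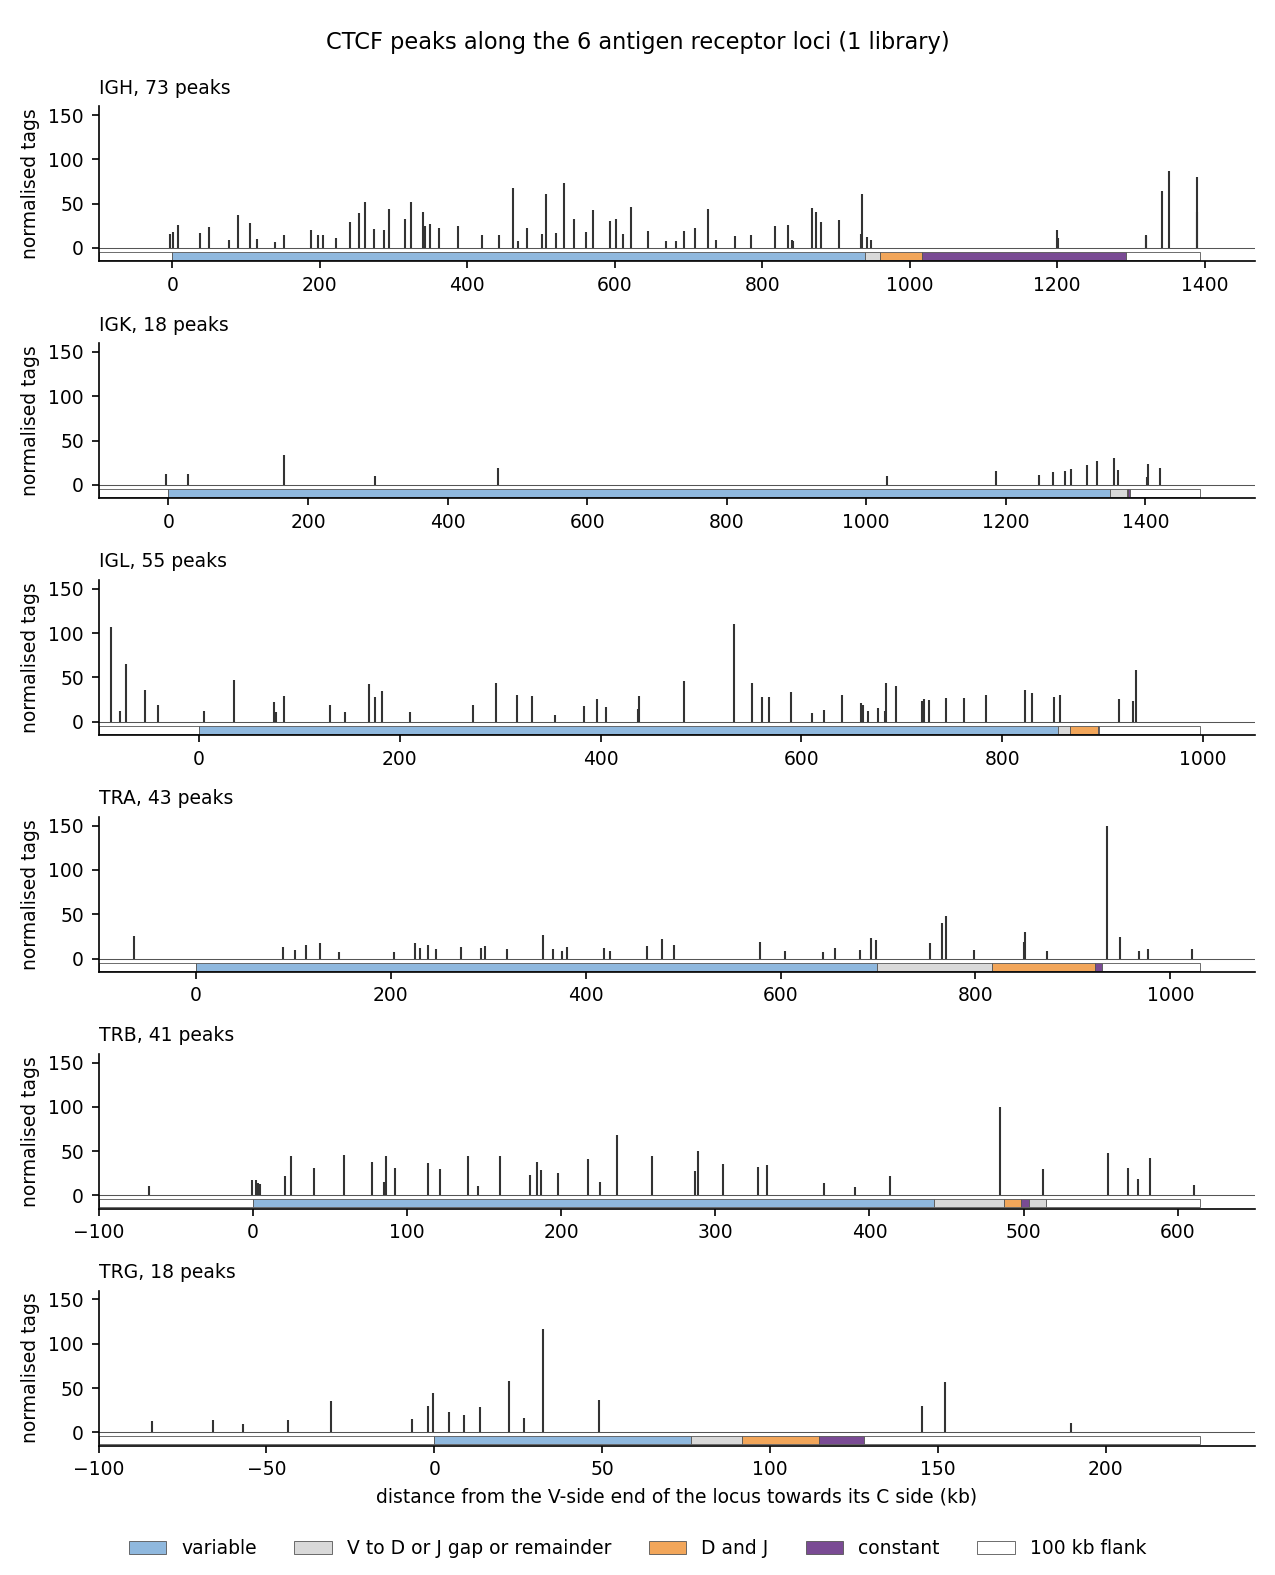
Normalised tags of every member peak along each locus, by distance in kb from the V-side end towards the constant side, with the zones as a coloured bar. Peaks line the variable zones of IGH, IGL, TRA, TRB and TRG, are sparse over most of IGK, and are missing from the D and J zone of every locus other than TRA.

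Of the 248 members, 135 (54.4%, 48.0 to 60.8) had their centre within 1 kb of an annotated gene or segment end, where 18.7% of all peaks did. These loci are also richer in such ends: 25.2% of the bases of the windows were within 1 kb of one, against 6.12% of the sequence elsewhere. In the variable zones 105 of 189 peaks (55.6%, 48.2 to 62.8) were within 1 kb of a V segment end, a range that took in 22.1% of the bases. By locus, in IGH 80.7% of peaks (50 of 62; 68.6 to 89.6) were that close, against 30.7% of the zone's bases, in TRA 70.0% (21 of 30; 50.6 to 85.3) against 19.9%, and in TRG 85.7% (6 of 7; 42.1 to 99.6) against 42.6%. In TRB the share was 37.5% (12 of 32; 21.1 to 56.3) against 32.9% of bases, in IGL 32.6% (15 of 46; 19.5 to 48.0) against 20%, and in IGK 8.33% (1 of 12; 0.211 to 38.5) against 14.0%. In these 3 loci, and also in TRG with its 7 peaks, the interval took in the share of bases.

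Counted by segment, 105 of 408 V segments (25.7%, 21.6 to 30.3) had a peak within 1 kb, where 15.9% of the annotated genes outside the loci did. The share was 70 of 228 (30.7%, 24.8 to 37.1) among V segments without a pseudogene annotation and 35 of 180 (19.4%, 13.9 to 26.0) among V pseudogenes. None of 32 D segments had one, which allows a share of up to 9.38%, and none of 25 C genes, which allows up to 12%. Both limits treat the segments as independent, which they are not. In IGH, 27 of these D segments and 6 of these C genes lay in 1 stretch without a peak. Of 105 J segments 3 did, TRAJ43, TRAJ44 and TRAJ45, which lie around 1 weak peak of 8.07 normalised tags. Among other large tandem gene families, 15 of 390 olfactory receptor genes (3.85%, 2.17 to 6.26) and 43 of 53 clustered protocadherin genes (81.1%, 68.0 to 90.6) had a peak within 1 kb of an end, so the V segments lay between them. The sets are not alike in length, with medians of 110200 bp for the protocadherin genes, 2985 for the olfactory receptor genes and 466 for the V segments. Either end counted, and the same peak could count for several genes. Protocadherin promoters are textbook CTCF sites, but this count does not separate promoters from the other ends. Of the 30 V segments annotated outside the 6 loci, 6 had a peak within 1 kb of an end (20%, 7.71 to 38.6), an interval that takes in the share inside them.

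The position of the peak differed between V families and was nearly constant within several of them. Positions are given by the side of the segment, J-facing or far from J, and by the distance of the peak centre from that edge. In IGH, 42 of the 49 V segments with a peak had it on the J-facing side, at a median of 93 bp. The median was 89.5 bp for the 22 without a pseudogene annotation and 128.5 bp for the 20 pseudogenes. A recombination signal borders a V segment on that side, but no sequence was read there. In the other 5 loci, 51 of the 56 V segments with a peak had it on the far side, which holds the leader exon and promoter of a segment transcribed towards J. The remaining 5 include IGKV6D-41 of the distal IGK copy, which is inverted, so the sides of that segment are exchanged. Segments of a family are copies of one another, so their positions are not independent observations.

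IGHV3, the largest heavy chain family, had a peak at 23 of 48 segments and IGHV4 at 7 of 9. All 30 were on the J-facing side, and 29 lay within 46 to 127 bp of the edge, the exception being the pseudogene IGHV3-57 at 269 bp. The 7 IGHV4 peaks held 73.9 normalised tags at IGHV4-30-2, 60.9 at IGHV4-34, 45.5 at IGHV4-4, 39.8 at IGHV4-59, 28.9 at IGHV4-61, 25.8 at IGHV4-80 and 21.3 at IGHV4-55. The 2 lowest of these are the pseudogenes. The 23 IGHV3 peaks ran from 8.07 normalised tags at IGHV3-19 through a median of 20 to 52.1 at IGHV3-57, so the families overlapped in level. IGHV3-49 (51.5), IGHV3-22 (45.8) and IGHV3-15 (44.2) were next in level, while IGHV3-38 and IGHV3-20 held 8.33 each. The pseudogene family IGHVIII also had its peaks on the J-facing side, at 10 of 17 segments, but over a wider range of 62 to 913 bp, with IGHVIII-38-1 highest at 68.2 normalised tags.

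IGHV1 and IGHV7, a pair of related families, were the heavy chain exception. Peaks lay within 1 kb of 6 of their 21 segments, all on the far side and all between 678 and 694 bp from the edge. These were IGHV1-3 with 40.1 normalised tags, IGHV1-24 with 32.8, IGHV1-18 with 18.7, IGHV7-27 with 18.0, IGHV7-34-1 with 15.9 and IGHV1-67 with 15.1. The distance was nearly the same in all 6 while the tags ranged from 15.1 to 40.1.

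In TRA, 21 of 57 V segments had a peak and all 21 were on the far side. The distance was 97 to 307 bp in 20 of them, with TRAV2 farther out at 787 bp. The 4 TRAV8 members with a peak had it at 293 to 307 bp: TRAV8-6 held 27.1 normalised tags, TRAV8-2 17.7, TRAV8-4 13.0 and TRAV8-3 12.2. The other TRAV peaks were weak, from 7.29 normalised tags at TRAV6 and TRAV37 to 23.4 at TRAV40, and the median of the 21 was 12.2.

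In TRG, whose V segments TRGV1 to TRGV8 form a tandem array, peaks lay 240 to 295 bp beyond the far edge of 7 segments, and TRGV5 and TRGV8 had none. They held 116.3 normalised tags at TRGV7, 58.3 at TRGV5P, 44.0 at TRGV1, 28.1 at TRGV4, 23.4 at TRGV2, 19.3 at TRGV3 and 16.1 at TRGV6. TRGV7 and TRGV5P, the highest, are pseudogenes, and neither TRGV9, which pairs with TRDV2 in the main gamma delta T cells of blood, nor TRGV10 or TRGV11 had a peak within 1 kb. The nearest peak to TRGV9 was 1518 bp away and held 35.9 normalised tags.

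In IGL the same far side held 13 of the 15 V segment peaks. The 5 IGLV1 peaks lay 293 to 345 bp out, at IGLV1-51 (43.2 normalised tags), IGLV1-47 (28.9), IGLV1-40 (17.7), IGLV1-36 (16.9) and IGLV1-44 (8.07). IGLV6-57, IGLV9-49, IGLV11-55 and IGLV4-69, each from another family, had theirs at 233 to 403 bp. IGLV3 had peaks within 1 kb at 4 of 23 segments. The nearest peak of 9 more lay on the far side between 1.47 and 1.97 kb, with 11.7 to 43.7 normalised tags. The farthest of these also lay 734 bp from IGLV2-5. IGLV3-25 and IGLV3-16, whose nearest peaks were J-facing, also had a far-side peak, at 1641 and 1545 bp. The 1 kb limit thus missed a recurring position there. TRB was mixed: 10 of 12 were on the far side, of which TRBV8-1, TRBV8-2, TRBV9 and TRBV13 lay at 544 to 565 bp with 46.1, 44.2, 31.5 and 67.9 normalised tags. TRBV14 (50.0) and TRBV20-1 (32.3) were closer, at 187 and 116 bp. TRBV12 segments recurred at a longer distance, 3 of 5 with a peak 2.33 to 2.48 kb out on the far side.

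**Figure D4:**
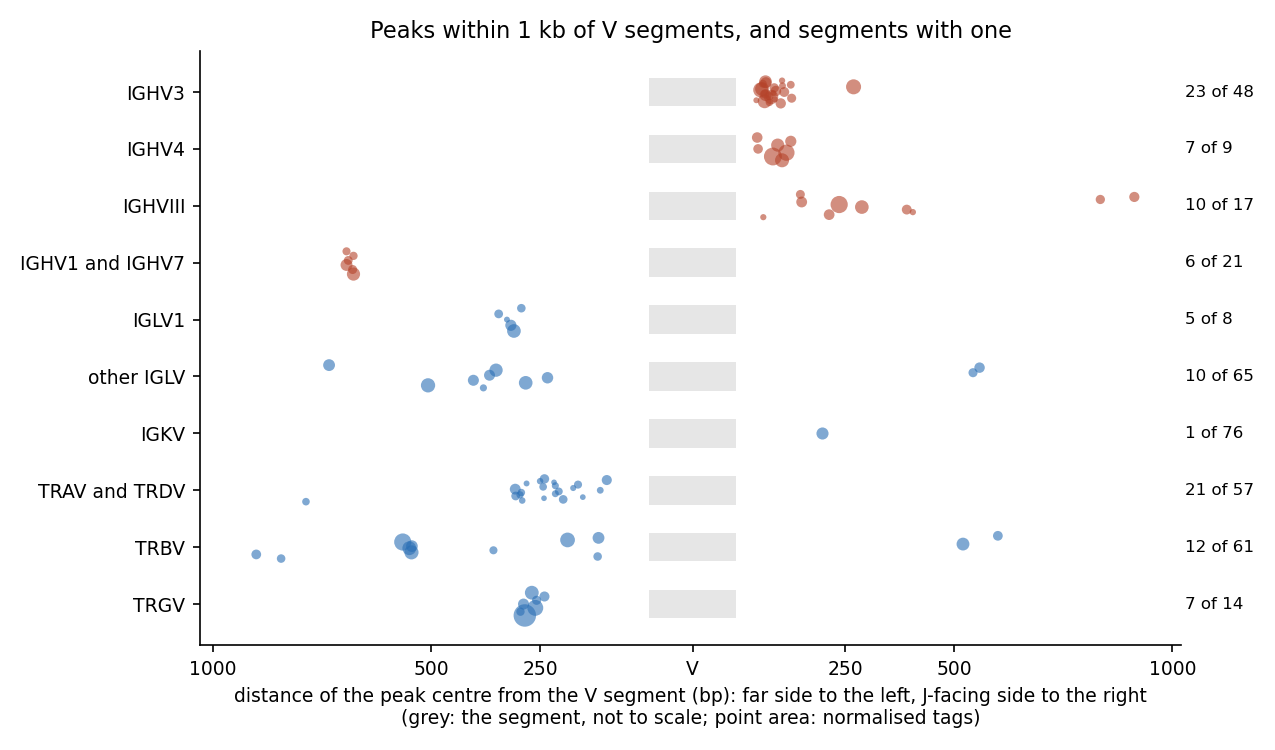
Distance of the nearest peak centre from each V segment that has one within 1 kb, by family, on the far side (left) or the J-facing side (right); point area is normalised tags and the counts at the right give segments with a peak of all segments. IGHV3, IGHV4 and IGHVIII peaks lie on the J-facing side, and IGHV1 and IGHV7, IGLV1, TRA and TRG peaks on the far side.

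Between the V arrays and the D or J segments, every locus but TRG had at least 1 peak, the interval that in mouse Igh and Igk contains insulating CTCF sites. In TRB a single peak of 99.4 normalised tags (85.8 to 115; chr7:142783295-142783643) stood 2.74 kb from TRBD1, the first D segment, and was the highest inside that locus. It was alone in 45.3 kb, and the stretch of 70.6 kb without a peak before it was the longest in TRB. TRB also had 1 peak past its constant genes, of 29.4 normalised tags, 1.25 kb from TRBV30, the V segment that lies apart from its array. In IGK the gap held 30.2 normalised tags (22.9 to 39.0; chr2:88880373-88880721) at 5.03 kb from IGKV4-1 and 16.4 (11.4 to 23.5) at 11.3 kb, the region that holds the Cer and Sis elements in mouse. In IGL it held 1 peak of 30.2 normalised tags, 2.76 kb from IGLV3-1.

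The IGH gap, where mouse cells carry the strong IGCR1 sites, held only weak peaks. They had 12.8 normalised tags (8.42 to 19.2) at 2.01 kb from IGHV6-1 and 8.59 (5.16 to 14.2) at 7.79 kb, inside the noncoding gene FAM30A, so these 17 to 25 counted tags were near the caller's limit of 15. The D side of these peaks opened the longest stretch without a peak in IGH, 251.4 kb (chr14:105680391-105931789) that took in all 27 D and all 9 J segments and 6 constant genes. On the V side the first peak of the array was at the pseudogene IGHVII-1-1, with 61.2 normalised tags (50.8 to 73.6; chr14:105944965-105945313). The 2 constant zone peaks held 20.3 and 11.5 normalised tags, at 10.2 and 9.26 kb from the constant pseudogene IGHGP.

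In TRA the gap between TRAV41 and the delta D segments spans 117.9 kb and held 4 peaks. The 2 strongest inside the locus were there, within the antisense gene TRD-AS1, at 48.4 normalised tags (39.1 to 59.3; chr14:22391869-22392217) and 40.1 (31.6 to 50.1; chr14:22387438-22387786), 30.5 and 34.9 kb from TRDV2. Another pair, of 29.7 and 18.7 normalised tags, lay between TRDV3 and TRAJ61, that is, between the delta and the alpha J segments, an interval known in human cells for the enhancer-blocking element BEAD-1. The remaining J zone of TRA held the 1 weak peak at TRAJ44. In the V array of TRA, after the peaks at TRAV8-6 (27.1) and TRAV40 (23.4), a peak of 22.6 normalised tags lay 3.77 kb from TRDV1, a delta V segment among the TRAV genes.

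Within the intervals, the peaks nearest the V-side edge of the variable zones were 18.5 normalised tags at IGHVIII-82, 11.7 at 2.40 kb from IGKV1D-43, 11.7 at IGLV4-69, 13.3 at TRAV2, 16.9 at TRBV2 and 23.4 at TRGV2. TRBV1 and TRGV1, the outermost segments of their arrays, had their peaks just past the interval, with 16.9 and 44.0 normalised tags. At the J-facing edge the values were 61.2 in IGH, 26.5 in IGK, 27.8 at 3.30 kb from IGLV3-1, 20.6 at TRAV41, 21.9 at the pseudogene TRBVB and 35.9 in TRG.

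The flanks on the constant side held few peaks, 6 in IGH, 5 each in TRB and TRA, and 3 each in TRG, IGL and IGK. Their medians were 52.4 normalised tags in IGH, 30.7 in TRB, 29.9 in TRG, 25.2 in IGL, 18.5 in IGK and 11.2 in TRA. The median of all other peaks was 20. The ranges overlapped, for example 13.3 to 86.7 in IGH and 8.59 to 150.2 in TRA, so these medians do not rank the loci. The TRA peak of 150.2 normalised tags lay 5.17 kb past TRAC, the alpha constant gene, between it and DAD1, a housekeeping gene of protein glycosylation whose own peak held 23.9. The C-side flank of IGH held 6 peaks, with 86.7 normalised tags (74.3 to 101) in TMEM121, 79.6 and 40.3 at TEDC1, and 64.5 (53.7 to 77.0) at 48.9 kb from IGHA2, the last constant gene. The C-side flank of IGK had 23.9 normalised tags 324 bp from IGKDEL, the kappa deleting element that removes IGKC in cells that turn to the lambda chain, and 9.11 within it. The C-side flank of TRG had 57.3 within STARD3NL, that of IGL 58.3 at 36.5 kb from IGLC7, and that of TRB 47.6 near EPHB6, a receptor of the Eph family. On the V sides the highest were 106.7 in PPM1F, a protein phosphatase gene beside IGL, 44.0 at TRGV1, 25 beside TRA, 16.9 beside TRB, 16.1 beside IGH and 12 beside IGK.

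Genes of other families inside the loci took some of the strongest peaks. In IGL, PRAME has the peak of 109.8 shown above, and the zinc finger gene ZNF280B one of 46.1. The remaining high peaks of IGL lay at or near V segments: 46.8 at IGLVV-66, 43.7 at 1518 bp from IGLV3-21, 43.2 at 3308 bp from IGLV2-34, 42.9 at IGLV6-57 and 40.6 at IGLV3-19. In TRB, peaks of 45.0, 45.0 and 44.5 normalised tags lay 2328 bp from TRBV12-3, 2429 bp from TRBV12-2 and 2287 bp from TRBV5-1.

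IGK was the sparse locus. It had a peak within 1 kb at 1 of 76 V segments, IGKV6D-41, with 33.8 normalised tags (26.1 to 43.1), the highest in the locus. That peak lay 196 bp out on the side taken as J-facing by position, but IGKV6D-41 is in the inverted distal copy, where the sides are exchanged. The other named peaks were at the J-proximal end, with 26.5 at 6.16 kb from IGKV5-2, 22.6 at 3.86 kb from IGKV7-3, and 17.4 and 15.9 at 5.94 and 2.45 kb from IGKV1-5, or in the pseudogene ABCD1P1 between the arrays, with 18.5. The longest stretch without a peak, 557.6 kb (chr2:89205499-89763122), held 14 V segments. It ran on past the last of these, IGKV2-40, into the sequence without V segments between the arrays. Human IGKV segments lie in a proximal and an inverted distal copy of nearly the same sequence, in which reads that match both copies cannot be placed, and how such reads were treated is not given in the sources used here. Their part in the low count was not tested. The longest stretches elsewhere were 153.4 kb at TRA, 95.98 kb at TRG and 62.5 kb in IGL. A stretch that reached into a flank was measured whole. The TRA stretch began in the V-side flank, at chr14:21557952, and the TRG stretch in the C-side flank, at chr7:38222858, so the part inside the locus was shorter.

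Among 22 genes that run or accompany recombination, 4 had a peak within 1 kb of an end (18.2%, 5.19 to 40.3), where 28.2% of all protein-coding genes did, so the share was not distinguishable from the background. Counted over the whole gene, PAX5 held 7 peaks, YY1 4, and EBF1 and LEF1 3 each. These genes differ widely in length and the counts were not scaled to it, so they do not rank the genes by peak density. RAG1, a subunit of the recombinase, had 97.1 normalised tags (83.9 to 112) 8 bp from an end. EBF1, a B lineage factor, had 48.9 (39.5 to 59.9), BCL11B, a T lineage factor, 20.3 (14.4 to 27.8) and LEF1, which binds T cell enhancers, 7.55 (4.37 to 12.9). RAG2, DNTT, PAX5, IKZF1, TCF3, GATA3, TCF7, YY1, PTCRA, VPREB1, IGLL1, IGLL5 and the CD3, CD79 and CD247 receptor chain genes had none within 1 kb. The nearest peak to VPREB1, a surrogate light chain gene inside IGL, was 9.06 kb away. None of 5 B cell, 5 T cell and 5 melanocyte marker genes had a peak within 1 kb of an end. A peak list gives no expression, so the labelled cell type could not be checked against its markers.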

How the data were processed

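The submitters' processing notes name Bowtie2, HOMER and the build hg38 without a version. Per the file headers, findPeaks called peaks of 349 bp in 1 library without a control, from tags extended to 164 bp and counted once per position, at a false discovery rate of 0.001 (15 tags) and at least 4-fold over the local 10 kb. Repeats and extra DNA copies can enter such a list. The signal per peak is a tag count that the authors scaled to 10000000 tags. As deposited, the focus ratio is the fraction of tags on the side of the peak where they should fall, the score has the caller's own scale, and the fold over the local region and the clonal fold are ratios. A deposited p-value per peak was not used. The authors' scores and folds describe and rank peaks within this list only.

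Local background was computed here as normalised tags divided by the fold. Genes came from a RefSeq table of GRCh38.p14 (59091 genes on chromosomes 1 to 22 and X, with the 6 whole-locus entries left out), which gives no strand or exons, and no genome was used, so peak sequence outside promoter windows was not read. A segment's J-facing side was taken from its position relative to the D and J segments, which exchanges the sides of segments lying in the opposite orientation, such as the distal IGK copy. Zones were the variable array, the gap to the first D or J segment, the span of the D and J segments, and the constant genes after that span. The D and J span also took in segments lying within it, TRDV3 and TRDC in TRA and constant genes in IGL, TRB and TRG. Counts, tags and densities have exact Poisson 95% intervals, shares exact Clopper-Pearson ones, and medians binomial ones over peaks. A limit for a count of 0 is 3 counts. The 74 peaks off chromosomes 1 to 22 and X were left out. No test was made with 1 library.

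Members and lists were chosen with earlier results of these data known. Peaks were named by rule: up to 8 of the highest score per locus, the highest in each flank, and those at zone edges. V families and their positions, and the tandem families set beside them, were chosen after their values were seen. The assignment of peaks to loci and V sides was tested on simulated peaks. Those at V segments were placed by the same positional rule for sides, so a wrong orientation of a segment could not show. The tools were scipy 1.17.1, pandas 2.3.3 and numpy 2.4.6 under Python 3.11.15, with matplotlib 3.10.9 for plots.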

Additional observations from a re-analysis of the deposited data

How the results depend on the processing

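No paired analysis was possible because only 1 peak list was analysed. Of 153 planned values under other settings, 126 stayed within their interval or within 1.5 times. Some settings changed little: membership by peak centre kept all 248 members, and leaving out 1 locus kept most of them. The count of 126 is therefore no measure of robustness. With only the peaks scoring at least the list's median there were 131 members, 40 in IGH, 5 in IGK, 10 in TRA and 10 in TRG, at 2.07 peaks per 100 kb (0.699 elsewhere) and 2.31 in the variable zones. Under that setting the medians were 32.3 normalised tags (34.6 elsewhere, so the order turned), 24.4-fold over the local region (21.2), a local background of 1.42 (1.67) and a focus ratio of 0.881 (0.877). The share in the top 10% was then 13.0% (20.3%), the longest stretches without a peak became 1150 kb in IGK, 113.9 kb in IGL and 420.2 kb in TRA, and, as settings added after seeing the data, 58 V segments had a peak within 1 kb, with 17 IGHV3 and IGHV4 segments on the J-facing side within 150 bp (29 with all peaks) and 3 TRAV segments on the far side within 400 bp (20 with all peaks). Without flanks TRG kept 7 peaks. The share within reach of a gene or segment end was 41.9% at 500 bp (12.9% elsewhere), 86.7% at 5 kb (40.6%) and 33.9% with protein-coding genes and functional segments only (12.4%), and V segments with a peak within 5 kb numbered 230 (also added after seeing the data). In the top 25% by score lay 23.4% of members (25.3% elsewhere). The shorter motif AGGNGGC matched 10 of the 14 promoter windows, where 52.9% of windows under any peak and 35.8% of all windows matched. Leaving out 1 locus at a time gave 3.61 to 4.83 peaks per 100 kb, medians of 19.0 to 24.5 normalised tags, 16.9 to 19.6-fold over the local region, 1.19 to 1.32 of local background and 0.862 to 0.867 for the focus ratio, and shares of 5.71 to 7.80% in the top 10% and 45.7% (without IGH) to 58.5% near an end. The zones then had 3.71 (without IGH) to 5.88 (without IGK) peaks per 100 kb in the variable arrays, 3.73 to 5.13 in the gaps, 0 (without TRA) to 1.77 in the D and J zones and 0 (without IGH) to 0.683 in the constant zones. Weak peaks rest on few tags: at 7.29 normalised tags, near the caller's limit, the interval spans more than 2-fold.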
